A study of Mus musculus with 9 samples.

Results

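The DNA replication genes described here are 47 genes of replication origins, replication forks and deoxynucleotide supply, chosen by name for their known function and found in the table of 56289 genes by their symbols. The rule sets no threshold on a measured value, but the list was drawn up with the differences between these groups already known, so its counts are given as a description of these libraries. RNA was sequenced from cultures labelled as RAW264.7, a mouse macrophage-like line (strain given as BALB/c), in 3 groups of 3 libraries. The groups were untreated cultures (Con), cultures given 20 ng/ml recombinant human TNF-α for 24 h (TNF-α), and cultures given the same TNF-α together with 1.0 μg/ml of the herbal preparation Wang Bi tablet (TNF-α+WBT), whose agent the sample labels spell WBP. No group received WBT alone. Values are FPKM (fragments counted per kilobase of transcript and corrected for library depth), so that levels can be compared between genes per unit of length.

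Replication starts in G1, when the origin recognition complex together with Cdc6 and Cdt1 loads the MCM helicase onto DNA, a step called licensing that geminin (Gmnn) blocks once S phase has begun. At the onset of S phase, the kinases Cdc7 and cyclin E-Cdk2 bring Cdc45 and the GINS complex to the helicase, the DNA unwinds, and primase and the polymerases alpha, delta and epsilon copy it with the help of the sliding clamp PCNA, its loader RFC and the single strand binding protein RPA. Many of these genes are transcribed under the control of E2F factors as cells pass from G1 into S, and their RNA levels are therefore commonly read beside the rate at which a culture divides, which was not measured here.

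The labelled cell type was checked first. Of 18 macrophage genes only Cd14 lay above 1 FPKM in all 9 libraries, 7 were listed at 0 throughout (the pan-leukocyte gene Ptprc, the factor Spi1, and Ctss, Cybb, Tyrobp, Adgre1 and Itgam), and the summed level of the list was 6.14 to 8.81 FPKM. Genes typical of fibroblasts (14 of 18 above 1 FPKM throughout) and of Schwann cells (8 of 12) were present. The cultures are therefore called by their treatment below. All 12 genes that every cell uses lay above 1 FPKM in all libraries, and 9 of 12 genes of the TNF response were higher with TNF-α at an adjusted p under 0.05, C3 at 8.77 ± 0.709 FPKM in Con and 167 ± 6.84 FPKM in TNF-α (SD, n = 3 each). The estimated depth was 20320000 to 26280000 fragments in Con, 18960000 to 22550000 in TNF-α and 16930000 to 19820000 in TNF-α+WBT.

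Since E2F control is the textbook feature that these genes share, the promoters were searched for it. Of the 47 genes, 38 had a promoter in the RefSeq table of GRCm38.p6 (250 bases before to 50 after the first transcribed base), with 47 windows between them. The search looked on both strands for the 4 words of the E2F consensus, TTTCCCGC, TTTCGCGC, TTTGCCGC and TTTGGCGC. At least 1 word stood in 15 of the 47 windows (31.9%), against 2.26% of all 32851 windows, and in 15 of the 38 genes (39.5%). Among 29 further replication factors it stood in 7 of 23 windows (30.4%), and among 30 mitosis genes in 0 of 26. The windows of the replication genes were richer in G and C (median 61.3%) than all windows (52.7%), and the mitosis windows (59.8%) were close to them. A match is a description of the letters and does not show that a factor binds there. The sites shown are those of the 5 genes with a word and the smallest p between TNF-α and Con, in lower case with the word in capitals, each read along its gene.
Cdt1 (chr8:122568037-122568064, plus strand, word 32 bases after the start): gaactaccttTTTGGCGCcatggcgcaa
Mcm5 (chr8:75109298-75109387, plus strand, promoter with overlapping words on opposite strands, the first 153 bases before the start): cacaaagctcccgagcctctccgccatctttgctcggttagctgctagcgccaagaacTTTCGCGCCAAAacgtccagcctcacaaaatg
Rfc3 (chr5:151651209-151651298, minus strand, the 90 bases before the start, word 10 bases before it): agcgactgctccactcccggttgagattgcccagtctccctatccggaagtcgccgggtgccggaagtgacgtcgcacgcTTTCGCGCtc
Rfc3 (chr5:151651191-151651218, minus strand, another word at the start itself): tttcgcgctcGCGGGAAAactctactgt
Lig1 (chr7:13278842-13278869, plus strand, word 26 bases after the start): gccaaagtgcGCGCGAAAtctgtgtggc
Pold1 (chr7:44548766-44548786, minus strand, word 39 bases after the start): gtatcttgtgGCGGGAAAagc
Of the 15 genes with a word, 11 had a log2 fold change above 0 between TNF-α and Con and 4 below it (Cdt1, Orc3, Mcm7 and Pold3), and of the 23 genes with a window and no word, 18 were above 0 and 5 below. The median was 0.12 in both sets. Only Cdt1 among them passed the test described below.

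The machinery was expressed throughout. All 47 genes passed the filter on low values and had a mean of at least 1 FPKM over the 9 libraries, with single values from 0.956 FPKM (Orc1) to 57.3 FPKM (Mcm7). Their median level was 8.45 FPKM, against 0.986 FPKM over all 25417 tested genes. They lay on 14 chromosomes, 9 of them on chromosome 5 and 6 on chromosome 8. The estimated fragments behind a value ran from 35 to 3173, and the gene in the middle of the list had 291 in its thinnest library, where counting alone gives a coefficient of variation of 5.86%. The median coefficient of variation among replicates was 7.59%.

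Subunits of the same complex differed in level by more than the groups did. Within the origin recognition complex, mean levels per length ran from 1.47 FPKM for Orc1, its largest subunit, to 23.7 FPKM for Orc3, a 16.1-fold range. The MCM helicase subunits, which join in a ring with 1 copy of each, kept within 3.96-fold, from 13.6 FPKM (Mcm5) to 53.9 FPKM (Mcm7), the highest of all 47 genes. In the GINS complex Gins1 was at 2.40 FPKM, Gins2 at 4.08, Gins3 at 2.62 and Gins4 at 17.1. The clamp Pcna (40.9 FPKM) stood above every subunit of its loader, of which Rfc5 was the lowest at 6.34 FPKM. The catalytic subunit of polymerase epsilon, Pole, was the lowest polymerase gene at 3.17 FPKM, and the accessory subunit of polymerase delta, Pold2, the highest at 28.3 FPKM. These levels rest on transcript models whose unequal use can shift an FPKM value.

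**Figure D1:**
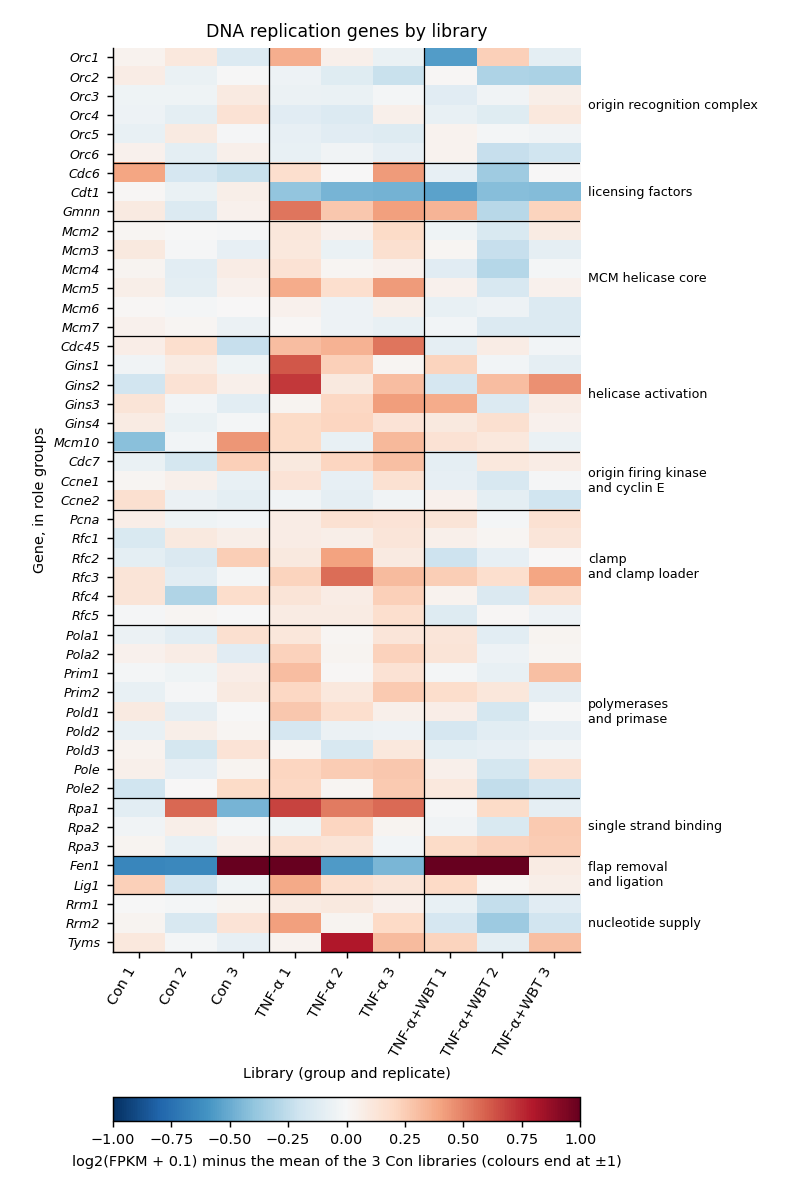
Each row is 1 of the 47 genes and each column 1 of the 9 libraries, and the colour gives log2(FPKM + 0.1) minus the mean of the 3 Con libraries, with colours ending at ±1. Cdt1 is blue in all 6 libraries with TNF-α, most other rows are pale, and Fen1 changes colour within every group.

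Between TNF-α and Con, Cdt1 fell and none of the other genes had an adjusted p under 0.05. Cdt1 was 1 of 47 genes with an adjusted p under 0.05, where 4.86% of all tested genes had one, and 8.37% of the 12684 tested genes that averaged 1 FPKM or more, as all 47 did. None passed the rule of the study, a more than 2-fold change at an unadjusted p under 0.05. That rule was passed by 2.42% of all tested genes and by 1.62% of the 12684. The 95% interval of the fold change lay within 2-fold in either direction for 45 of 47 genes (95.7%) and within 1.5-fold for 35 (74.5%). Of all tested genes, 71.6% and 46% had such intervals, and of the 12684 genes 92.4% and 76.1%. The shares of the 47 genes were therefore close to those of genes at their level. Rpa1 and Fen1 were the genes whose interval reached past 2-fold. In these bulk cultures, a change in the share of cells in S phase and a change in RNA per cell cannot be told apart, in either direction. The sources say nothing more of the replicates than that they are biological, and the p-values measure the spread between these libraries.

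Cdt1 (ENSMUSG00000006585, chr8:122568015-122573554 of GRCm38, plus strand), the licensing factor that loads the MCM helicase and is destroyed in S phase, was at 12.1, 11.5 and 12.5 FPKM in Con, at 9.10, 8.67 and 8.62 FPKM in TNF-α and at 8.28, 8.92 and 8.86 FPKM in TNF-α+WBT. Every library with TNF-α lay below every Con library, and the libraries with and without WBT overlapped. The log2 fold change was -0.45 ± 0.06 (SE) between TNF-α and Con (adjusted p = 0.00239, limma), which is 0.734-fold, and -0.46 ± 0.06 between TNF-α+WBT and Con (adjusted p = 0.00251). These comparisons share the Con libraries. Between TNF-α+WBT and TNF-α it was -0.02, with a 95% interval of -0.15 to 0.11. An exact two-sided permutation test gave p = 0.1 for each comparison with Con, the smallest value that 3 libraries against 3 allow, and p = 0.8 between TNF-α+WBT and TNF-α. Cdt1 kept an adjusted p under 0.05 in both comparisons with Con under all 19 alternative settings, and its log2 fold change ran from -0.48 to -0.41 between TNF-α and Con.

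The fall of Cdt1 was also seen in its main transcript. ENSMUST00000006760 (2189 bases) was at 8.18, 7.16 and 7.01 FPKM in Con, 5.62, 4.34 and 4.41 FPKM in TNF-α and 4.47, 5.90 and 4.90 FPKM in TNF-α+WBT, with no overlap between Con and the other groups. The longer ENSMUST00000212967 (2696 bases) was at 2.82, 3.13 and 5.03 FPKM in Con and at 2.28, 2.84 and 3.23 FPKM in TNF-α, and these groups overlapped. Cdt1 shares no exon bases with another gene of the annotation.

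The other licensing factors did not pass the test. Gmnn, whose protein binds Cdt1 and keeps it from loading MCM again, was at 4.34, 3.69 and 4.20 FPKM in Con, 5.95, 4.93 and 5.44 FPKM in TNF-α and 5.17, 3.34 and 4.75 FPKM in TNF-α+WBT. All TNF-α libraries lay above all Con libraries, opposite to Cdt1, while the TNF-α+WBT libraries spread from below the Con range into the TNF-α range. The log2 fold change between TNF-α and Con was 0.41 ± 0.16 (adjusted p = 0.251), from 60 to 121 estimated fragments a library. Cdc6, the ATPase that works with Cdt1, ran from 1.99 to 3.48 FPKM over the 9 libraries with overlapping groups.

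**Figure D2:**
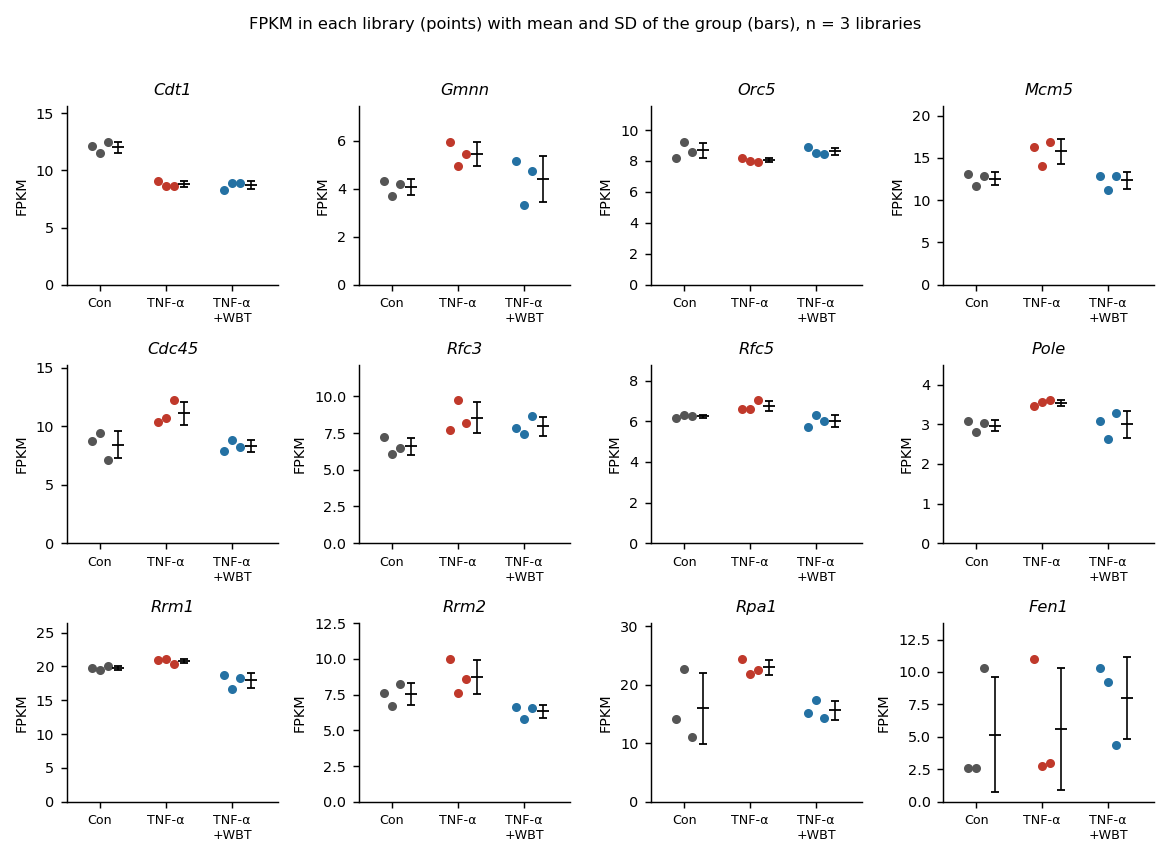
FPKM of 12 genes in each library (points) by group, with the mean and SD of 3 libraries beside them and each axis starting at 0. The Cdt1 points of TNF-α and TNF-α+WBT (8.28 to 9.10 FPKM) lie below those of Con (11.5 to 12.5 FPKM), Mcm5, Cdc45 and Pole are higher in TNF-α than in either other group, and Rpa1 and Fen1 spread widely within Con.

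Apart from Cdt1, small shifts upwards were more frequent than shifts downwards between TNF-α and Con. The fold change was above 0 in 37 of 47 genes and below 0 in 10, where 50.7% of all tested genes were above 0, and the median log2 fold change was 0.12, against 0.003 over all tested genes. At an unadjusted p under 0.05, 7 genes were higher, Gmnn, Mcm5, Cdc45, Gins4, Rfc3, Pole and Rpa1 (14.9%, where 8.63% of all tested genes were higher at that p), and 1 was lower, Cdt1 (2.13%, against 7.45%). Of the 12684 genes at the level of the members, 12.9% were higher and 11.2% lower at that p, so the share of higher replication genes was close to that background. The groups did not overlap in 11 higher genes (23.4%, against 11.1% of all tested genes), which added Mcm2, Pcna, Rfc5, Prim2 and Rrm1 to those named, other than Rpa1, and in 2 lower ones, Orc5 and Cdt1 (4.26%, against 10.2%). Among those 12684 genes the shares without overlap were 15.5% higher and 14.6% lower. Without Con replicate 1, 3 genes were lower at an unadjusted p under 0.05.

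**Figure D3:**
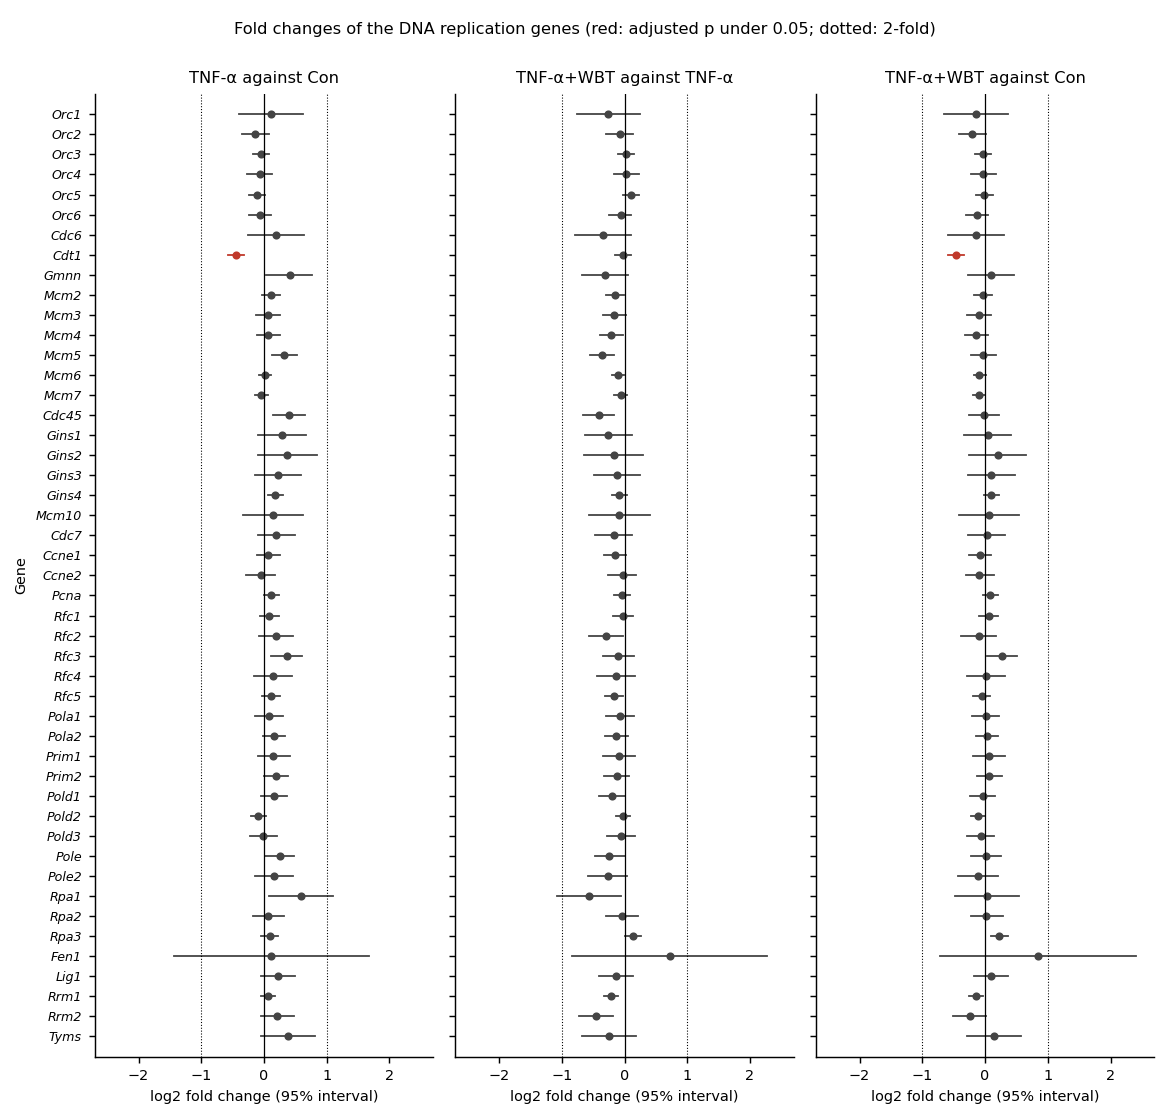
Log2 fold change (point) and 95% interval (line) of each of the 47 genes in the 3 comparisons, with dotted lines at 2-fold and an adjusted p under 0.05 shown in red. Only Cdt1 is red, in both comparisons with Con. Most points lie right of 0 between TNF-α and Con (37 of 47) and left of 0 in the middle panel, where WBT was added to TNF-α (42 of 47).

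Between TNF-α+WBT and TNF-α, no replication gene had an adjusted p under 0.05, where 0.00393% of all tested genes (1 gene) had one, and the smallest adjusted p was 0.451, for Rrm1. The count was 0 under all 19 alternative settings as well. The fold change was below 0 in 42 genes and above 0 in 5 (Orc3, Orc4, Orc5, Rpa3 and Fen1), where 49.3% of all tested genes were above 0, with a median log2 fold change of -0.13 against -0.002 over all tested genes. At an unadjusted p under 0.05, 12 were lower, Mcm2, Mcm4, Mcm5, Mcm6, Cdc45, Rfc2, Rfc5, Pold1, Pole, Rpa1, Rrm1 and Rrm2 (25.5%, where 3.43% of all tested genes were lower at that p), and 1 was higher, Rpa3 (2.13%, against 2.88%). The groups did not overlap in 10 lower genes (21.3%, against 5.61% of all tested genes) and in 2 higher ones, Orc5 and Rpa3 (4.26%, against 5.39%). Of the 12684 genes averaging 1 FPKM or more, 3.61% were lower and 3.3% higher at that p, and 6.44% were lower and 6.67% higher without overlap. The count of 12 lower genes became 7 without TNF-α replicate 1 and 7 without TNF-α+WBT replicate 2, and it was 6 without the intensity trend and 7 in a model of only the groups compared. The 95% interval lay within 2-fold for 45 genes (95.7%) and within 1.5-fold for 37 (78.7%). Those shares were 74.1% and 49.4% of all tested genes, and 95.2% and 81.9% of the genes averaging 1 FPKM or more. None passed the rule with a fold change over 2. That rule was passed by 1.12% of all tested genes and by 0.102% of those averaging 1 FPKM or more.

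This comparison and the one before it share the TNF-α libraries, so a TNF-α group that lies high by chance moves them in opposite directions. The comparison of TNF-α+WBT with Con takes its fold changes without those libraries. They do enter the estimate of spread behind its p-values and intervals, which all 9 libraries share. In that comparison the fold change was above 0 in 22 genes and below 0 in 25 (49.9% of all tested genes were above 0), with a median of -0.01. Only 1 gene, Cdt1, passed the test at an adjusted p under 0.05 (2.13%). Of all tested genes 3.71% did, and of the 12684 averaging 1 FPKM or more 6.46%. At an unadjusted p under 0.05, Rfc3 and Rpa3 were higher (4.26%, against 7.95% of all tested genes) and Cdt1, Pold2 and Rrm1 lower (6.38%, against 6.78%). Those counts became 4 higher and 1 lower without TNF-α+WBT replicate 2, 1 and 5 without TNF-α+WBT replicate 1, and 1 and 4 without TNF-α+WBT replicate 3. The groups did not overlap in those 2 higher genes (4.26%, against 10.2% of all tested genes) and in 5 lower ones, Cdt1, Mcm6, Pold2, Rrm1 and Rrm2 (10.6%, against 9.25%). Of the 12684 genes averaging 1 FPKM or more, 11.9% were higher and 9.7% lower at an unadjusted p under 0.05. Without overlap, 14.1% of them were higher and 13% lower. The interval lay within 2-fold for 46 of 47 genes (97.9%) and within 1.5-fold for 42 (89.4%). Those shares were 71.7% and 46.5% of all tested genes, and 92.7% and 77.2% of the 12684. None passed the rule of the study, although Fen1 did without Con replicate 3. That rule was passed by 2.29% of all tested genes and by 1.31% of the 12684.

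The origin recognition complex, which marks origins and stays at a steady level through most of the cell cycle, was the role group with most genes below 0 between TNF-α and Con (5 of 6, median log2 fold change -0.07). Orc5, an ATPase subunit, was at 8.22, 9.23 and 8.59 FPKM in Con, 8.17, 8.02 and 7.94 FPKM in TNF-α and 8.88, 8.53 and 8.45 FPKM in TNF-α+WBT. Its TNF-α values lay under both other groups, by 0.928-fold of Con (adjusted p = 0.428) and with the values of WBT 1.07-fold higher (adjusted p = 0.835). Orc1, the subunit whose level moves with the cell cycle, was at 1.49, 1.57 and 1.31 FPKM in Con, 1.90, 1.51 and 1.38 FPKM in TNF-α and 0.956, 1.73 and 1.35 FPKM in TNF-α+WBT, and the groups overlapped at 36 to 95 estimated fragments a library. Orc2, Orc3, Orc4 and Orc6 had log2 fold changes from -0.14 to -0.05 between TNF-α and Con, each with an interval that included 0. Of its exon bases, Orc2 shares 29.8% with Nif3l1 on the opposite strand.

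In the MCM helicase core, Mcm5 stood out from the other subunits in size of difference. It was at 13.1, 11.7 and 12.9 FPKM in Con, 16.3, 14.1 and 16.9 FPKM in TNF-α and 12.9, 11.2 and 12.9 FPKM in TNF-α+WBT. Every TNF-α library lay above every library of both other groups, which overlapped each other. The log2 fold change was 0.32 ± 0.09 between TNF-α and Con (adjusted p = 0.0827) and -0.36 ± 0.09 between TNF-α+WBT and TNF-α (adjusted p = 0.506). The call between TNF-α and Con was reached without TNF-α replicate 2 (0.40, adjusted p = 0.0438) and when genes averaging under 1 FPKM were left out (adjusted p = 0.0488). Mcm7, at 57.3, 56.3 and 53.4 FPKM in Con, 56.0, 53.7 and 52.8 FPKM in TNF-α and 54.6, 50.7 and 50.5 FPKM in TNF-α+WBT, had a log2 fold change of -0.04 between TNF-α and Con with an interval of -0.14 to 0.06. The proteins of these genes join in 1 ring, but their RNA differences ranged from -0.04 to 0.32 between TNF-α and Con and from -0.36 to -0.06 between TNF-α+WBT and TNF-α. Mcm2, Mcm4 and Mcm6 were the other subunits with an unadjusted p under 0.05 in the latter comparison, at 0.899-, 0.864- and 0.931-fold.

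The genes of helicase activation had the highest median of the 10 role groups between TNF-α and Con (6 of 6 above 0, median log2 fold change 0.25). Cdc45, which joins MCM and GINS into the active helicase, was at 8.77, 9.41 and 7.12 FPKM in Con, 10.4, 10.7 and 12.2 FPKM in TNF-α and 7.85, 8.82 and 8.22 FPKM in TNF-α+WBT. As for Mcm5, the TNF-α libraries lay above both other groups. The log2 fold change was 0.40 ± 0.11 (adjusted p = 0.088) between TNF-α and Con and -0.41 ± 0.11 (adjusted p = 0.564) between TNF-α+WBT and TNF-α. Gins4 was 1.13-fold higher in TNF-α than in Con (adjusted p = 0.116), with groups that did not overlap. Gins1, Gins2 and Gins3, subunits of the same complex, had log2 fold changes of 0.29, 0.37 and 0.22, from fewer fragments and with overlapping groups. Gins2 shares 67.3% of its exon bases with Gse1 on the opposite strand, which lay at 11.8 to 16.6 FPKM, above Gins2 itself. Mcm10, which binds the opened helicase, ran from 1.74 to 3.24 FPKM within Con alone.

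The kinase group had no gene past an unadjusted p of 0.05. Cdc7, the kinase that phosphorylates MCM at origins, was at 2.71, 2.51 and 3.38 FPKM in Con, 3.05, 3.31 and 3.52 FPKM in TNF-α and 2.67, 3.06 and 3.00 FPKM in TNF-α+WBT. Ccne1, a cyclin E, was at 8.69, 8.90 and 8.13 FPKM in Con, 9.42, 8.08 and 9.54 FPKM in TNF-α and 8.07, 7.67 and 8.50 FPKM in TNF-α+WBT. Both overlapped between all groups. Ccne2, the other cyclin E, had a log2 fold change of -0.05 between TNF-α and Con, with an interval of -0.28 to 0.17.

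Of the clamp and its loader, Rfc3 had the smallest p between TNF-α and Con. Rfc3, a subunit of the complex that opens PCNA and closes it around DNA, was at 7.21, 6.11 and 6.49 FPKM in Con, 7.70, 9.73 and 8.22 FPKM in TNF-α and 7.84, 7.41 and 8.69 FPKM in TNF-α+WBT. Both groups with TNF-α lay above Con and overlapped each other, so Rfc3 did not have the pattern of Mcm5 and Cdc45. Its log2 fold change was 0.37 ± 0.11 between TNF-α and Con (adjusted p = 0.109) and 0.27 ± 0.11 between TNF-α+WBT and Con (adjusted p = 0.276). Rfc5, another loader subunit, was at 6.19, 6.32 and 6.24 FPKM in Con, 6.61, 6.63 and 7.03 FPKM in TNF-α and 5.72, 6.30 and 6.03 FPKM in TNF-α+WBT. TNF-α was the highest group, by 1.08-fold over Con (adjusted p = 0.443), and TNF-α+WBT was at 0.891-fold of TNF-α (adjusted p = 0.719). Pcna was at 39.0 ± 1.61 FPKM in Con, 42.4 ± 1.18 FPKM in TNF-α and 41.4 ± 2.62 FPKM in TNF-α+WBT (SD, n = 3 each), a 1.09-fold difference between TNF-α and Con (adjusted p = 0.313). Rfc2 and Rfc4 share 15.1% and 12.7% of their exon bases with genes on the opposite strand, Rfc4 with Eif4a2 at 117 to 129 FPKM.

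Among the polymerases and primase, 7 of 9 genes were above 0 between TNF-α and Con and all 9 below 0 between TNF-α+WBT and TNF-α. Pole, the catalytic subunit of the polymerase that copies the leading strand, was at 3.08, 2.80 and 3.02 FPKM in Con, 3.46, 3.55 and 3.60 FPKM in TNF-α and 3.08, 2.62 and 3.29 FPKM in TNF-α+WBT. Its TNF-α libraries lay above both other groups and close to each other. The log2 fold change was 0.25 ± 0.10 between TNF-α and Con (adjusted p = 0.286) and -0.24 ± 0.10 between TNF-α+WBT and TNF-α (adjusted p = 0.788). Pold1, the catalytic subunit of the lagging strand polymerase, was at 7.61, 6.70 and 7.13 FPKM in Con, 8.62, 8.03 and 7.40 FPKM in TNF-α and 7.47, 6.30 and 7.10 FPKM in TNF-α+WBT. Its groups overlapped in the comparison with Con and in that with WBT, where it was 0.868-fold (adjusted p = 0.788). The subunits of the primase complex that begins each new strand (Pola1, Pola2, Prim1 and Prim2) had log2 fold changes of 0.08 to 0.19 between TNF-α and Con. Pold2, an accessory subunit, went the other way in both comparisons with Con, to 0.940-fold in TNF-α (adjusted p = 0.46) and 0.921-fold in TNF-α+WBT (adjusted p = 0.327).

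The single strand binding protein RPA has 3 subunits that act as 1 complex, and their RNA differed in pattern. Rpa1, the large subunit that holds the DNA, was at 14.2, 22.7 and 11.0 FPKM in Con, 24.4, 21.9 and 22.6 FPKM in TNF-α and 15.1, 17.4 and 14.3 FPKM in TNF-α+WBT. Con replicate 2 lay among the TNF-α libraries, and the other Con libraries below all of them. The log2 fold change was 0.59 ± 0.22 between TNF-α and Con (adjusted p = 0.231), and without Con replicate 2 it was 0.87 (adjusted p = 0.00885). In that library ENSMUST00000135770 (2040 bases) was at 6.50 FPKM, as in TNF-α replicate 1 (7.12 FPKM), and at 0.00 to 2.44 FPKM in the other 7. The longer ENSMUST00000092907 (5077 bases) was at 9.75, 11.8 and 10.7 FPKM in Con and 12.8, 14.6 and 17.9 FPKM in TNF-α. In TNF-α+WBT it was at 8.52, 17.1 and 11.2 FPKM, which overlapped TNF-α, unlike the values of the gene. Rpa2, the middle subunit, had log2 fold changes of 0.07 between TNF-α and Con and -0.04 between TNF-α+WBT and TNF-α, with intervals that included 0. Rpa3, the smallest subunit, was at 16.8 ± 0.803 FPKM in Con, 17.9 ± 1.23 FPKM in TNF-α and 19.7 ± 0.39 FPKM in TNF-α+WBT (SD, n = 3 each), the only gene of the 47 that was higher with WBT at an unadjusted p under 0.05. It was 1.17-fold higher in TNF-α+WBT than in Con (adjusted p = 0.0938) and 1.10-fold higher than in TNF-α (adjusted p = 0.786).

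Fen1, the nuclease that trims the flaps of Okazaki fragments, varied too much among replicates for a difference to be measured (95% interval of the log2 fold change -1.44 to 1.67 between TNF-α and Con). It is described because its values lay far apart within every group, and was chosen for this after they were seen. It was at 2.58, 2.60 and 10.3 FPKM in Con, 11.0, 2.75 and 2.97 FPKM in TNF-α and 10.3, 9.23 and 4.37 FPKM in TNF-α+WBT, a coefficient of variation of up to 86.4% in a group. The 4 libraries above 9 FPKM differed from the rest in 2 transcripts. ENSMUST00000156291 (2373 bases) was at 5.62 and 6.14 FPKM in Con replicate 3 and TNF-α replicate 1 and at most 0.0878 FPKM elsewhere, and ENSMUST00000025651 (2341 bases) was at 6.74 and 6.58 FPKM in TNF-α+WBT replicates 1 and 2 and at most 1.04 FPKM elsewhere. The transcripts ENSMUST00000116542 (1.26 to 2.42 FPKM) and ENSMUST00000142241 (0.98 to 2.17 FPKM) kept a narrow range over all 9 libraries. Fen1 shares 5.37% of its exon bases with Tmem258 on the opposite strand, at 46.4 to 55.1 FPKM, and 78.8% with Gm10143, at 0.127 to 1.02 FPKM. In the 4 libraries with Fen1 above 9 FPKM, Tmem258 was at 48.2 to 53.7 FPKM and Gm10143 at 0.127 to 0.485 FPKM. The sources used here do not say whether reads were counted by strand. It is therefore not known whether reads of a gene and of a partner on the opposite strand were kept apart. The part of such reads in the Fen1 values was not tested. Lig1, the ligase that seals the fragments, was at 8.70, 6.45 and 7.16 FPKM in Con, 9.63, 8.32 and 8.10 FPKM in TNF-α and 8.50, 7.50 and 7.69 FPKM in TNF-α+WBT, with overlapping groups (1.17-fold between TNF-α and Con, adjusted p = 0.4).

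**Figure D4:**
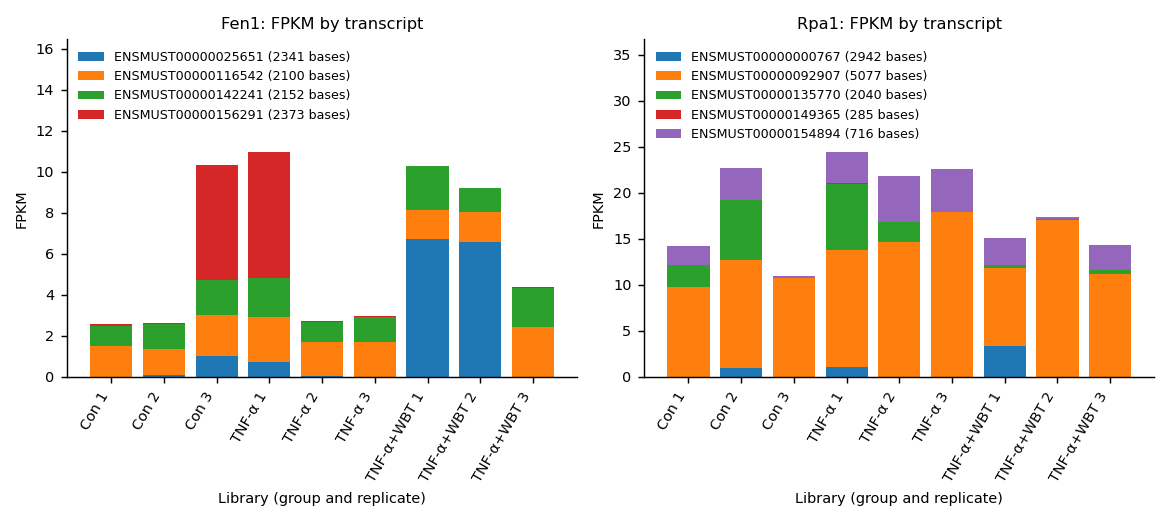
Stacked FPKM of the transcripts of Fen1 (left) and Rpa1 (right) in each of the 9 libraries. The high Fen1 libraries (9.23 to 11.0 FPKM) carry a large red or blue block (5.62 to 6.74 FPKM) that is 1.04 FPKM or less in the others, and the green Rpa1 block is large in Con replicate 2 (6.50 FPKM) and TNF-α replicate 1 (7.12 FPKM).

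The genes of deoxynucleotide supply held the smallest p of the comparison with WBT added. Rrm1, the large subunit of ribonucleotide reductase, was at 19.7, 19.5 and 20.1 FPKM in Con, 20.9, 21.1 and 20.4 FPKM in TNF-α and 18.8, 16.7 and 18.3 FPKM in TNF-α+WBT. The 3 groups did not overlap, with TNF-α highest and TNF-α+WBT lowest. The difference with WBT was 0.861-fold of TNF-α (adjusted p = 0.451) and 0.904-fold of Con (adjusted p = 0.199). Rrm2, the small subunit that limits the activity of the enzyme outside S phase, named here after its values were seen, was at 7.64, 6.69 and 8.24 FPKM in Con, 10.0, 7.64 and 8.61 FPKM in TNF-α and 6.67, 5.79 and 6.54 FPKM in TNF-α+WBT. The TNF-α+WBT libraries lay below all others, at 0.729-fold of TNF-α (adjusted p = 0.556). Tyms, which makes thymidylate, was at 4.88, 4.47 and 4.27 FPKM in Con, 4.64, 7.99 and 5.67 FPKM in TNF-α and 5.30, 4.22 and 5.60 FPKM in TNF-α+WBT, and the groups overlapped around the high value of TNF-α replicate 2.

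Summarised by library, the TNF-α libraries stood slightly apart. The median over the 47 genes of the log2 level minus the Con mean was 0.03, -0.05 and 0.02 in Con, 0.13, 0.06 and 0.13 in TNF-α and 0.02, -0.10 and -0.00 in TNF-α+WBT. All 3 TNF-α libraries had a median above all others, TNF-α replicate 2 by the least. The 29 further replication factors ran at -0.00, -0.05 and 0.06 in Con, 0.08, 0.02 and 0.12 in TNF-α and 0.01, -0.12 and -0.04 in TNF-α+WBT, so that Con and TNF-α overlapped. None of them had an adjusted p under 0.05 (limma) between TNF-α and Con. At an unadjusted p under 0.05, 5 were higher and 1 lower (12.9% and 11.2% of the genes averaging 1 FPKM or more). The genes of that list with the smallest p in the main comparisons were Clspn and Rnaseh2c. Clspn, the claspin that couples fork and checkpoint, was at 2.50 ± 0.126 FPKM in Con, 3.29 ± 0.418 FPKM in TNF-α and 2.34 ± 0.45 FPKM in TNF-α+WBT (SD, n = 3 each), and Rnaseh2c, a subunit of the enzyme that removes ribonucleotides from DNA, at 13.0 ± 2.36, 17.5 ± 2.26 and 13.9 ± 0.22 FPKM.

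**Figure D5:**
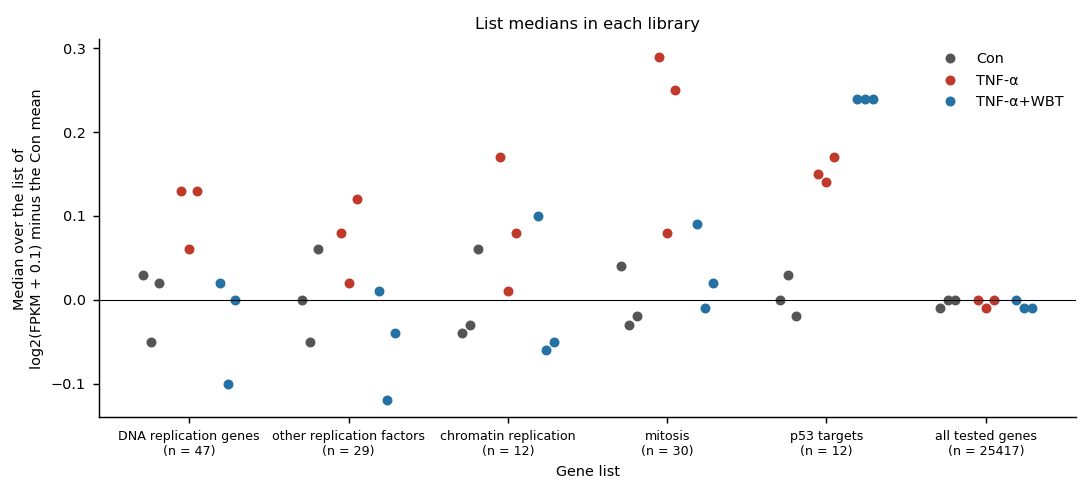
Median over each gene list of log2(FPKM + 0.1) minus the Con mean, 1 point per library, for 5 lists and for all tested genes. The TNF-α points of the DNA replication genes (0.06 to 0.13) lie above Con and TNF-α+WBT, those of the mitosis genes run from 0.08 to 0.29, the lowest (TNF-α replicate 2) just under TNF-α+WBT replicate 1 at 0.09, and the p53 targets are highest in TNF-α+WBT.

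Lists around replication were set beside it. Between TNF-α and Con, 8.63% of all tested genes were higher and 7.45% lower at an unadjusted p under 0.05, and 4.86% had an adjusted one. Of the 12684 genes averaging 1 FPKM or more, 12.9% were higher and 11.2% lower, and 8.37% had an adjusted p under 0.05. The counts of the lists are to be read against these shares, the latter where their genes averaged 1 FPKM or more. Of 30 mitosis genes, 28 were above 0 between TNF-α and Con (median log2 fold change 0.21), where 50% of the 12684 were. Of the 30, 11 were higher at an unadjusted p under 0.05. In TNF-α+WBT relative to TNF-α, 28 were below 0 (median -0.19), where 50.4% of the 12684 were above 0. There 10 were lower and 0 higher at an unadjusted p under 0.05, against 3.61% and 3.3% of the 12684. Top2a, the topoisomerase that untangles sister chromatids, was the mitosis gene with an adjusted p under 0.05, at 27.0 ± 0.688 FPKM in Con and 32.9 ± 1.43 FPKM in TNF-α (SD, n = 3 each, adjusted p = 0.0135), and it was at 28.4 ± 1.46 FPKM in TNF-α+WBT. Birc5, which attaches spindles to chromosomes, was at 11.0 ± 0.373 FPKM in TNF-α and 9.13 ± 0.558 FPKM in TNF-α+WBT (adjusted p = 0.465). Of 12 genes of chromatin replication, Uhrf1, which carries DNA methylation to the new strand, rose from 10.7 ± 0.179 FPKM in Con to 14.1 ± 1.30 FPKM in TNF-α (adjusted p = 0.0283), and none fell. None of 16 replication checkpoint genes had an adjusted p under 0.05 (limma) between TNF-α and Con, and 3 were higher and 0 lower at an unadjusted p under 0.05. Chek2, a checkpoint kinase, was at 3.76 ± 0.428 FPKM in Con and 5.03 ± 0.44 FPKM in TNF-α (adjusted p = 0.111), and the repair nuclease Exo1 at 1.77 ± 0.183 and 2.46 ± 0.273 FPKM (adjusted p = 0.243).

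Among 22 further genes of nucleotide supply, 1 rose and 1 fell between TNF-α and Con. Ctps, which makes CTP, rose from 33.4 ± 1.43 FPKM in Con to 47.5 ± 1.11 FPKM in TNF-α and was at 45.4 ± 1.13 FPKM in TNF-α+WBT (adjusted p = 0.000191 between TNF-α and Con). Gart, a purine synthesis enzyme named after its values were seen, fell from 47.6 ± 2.88 to 38.3 ± 0.493 FPKM (adjusted p = 0.0135). Dck, which phosphorylates salvaged deoxycytidine, was at 6.93 ± 0.153 FPKM in TNF-α and 5.72 ± 0.201 FPKM in TNF-α+WBT (adjusted p = 0.497).

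Of 17 E2F and pocket protein genes, which govern entry into S phase, none had an adjusted p under 0.05 (limma) between TNF-α and Con, and 1 was higher and 2 were lower at an unadjusted p under 0.05. E2f1, the activator of S phase genes, was at 8.90 ± 0.317 FPKM in Con, 9.49 ± 0.572 FPKM in TNF-α and 9.28 ± 0.734 FPKM in TNF-α+WBT. Lin54, at 2.43 ± 0.251 FPKM in Con and 1.94 ± 0.0751 FPKM in TNF-α, and Lin52, at 2.64 ± 0.135 FPKM in TNF-α and 3.33 ± 0.323 FPKM in TNF-α+WBT, belong to the MuvB complex, which takes part in the control of cell cycle genes. Neither passed the test (adjusted p = 0.232 and 0.719).

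Of 19 tested cyclins, CDKs and CDK inhibitors, 3 rose and none fell between TNF-α and Con (Cdkn2b, the remaining gene of the list, was listed at 0 in all libraries). Ccnd1, the cyclin D that drives G1, was at 87.1, 85.1 and 82.5 FPKM in Con, 122, 120 and 123 FPKM in TNF-α and 116, 109 and 117 FPKM in TNF-α+WBT (log2 fold change 0.52 ± 0.04 between TNF-α and Con, adjusted p = 0.0001). Cdk6, its kinase partner, named after its values were seen, was at 5.79 ± 0.447 FPKM in Con, 11.7 ± 0.317 FPKM in TNF-α and 10.2 ± 1.99 FPKM in TNF-α+WBT (SD, n = 3 each, adjusted p = 0.00228 between TNF-α and Con). The inhibitor Cdkn1a (p21) rose along with them, from 12.9 ± 0.931 to 17.2 ± 0.527 FPKM (adjusted p = 0.0362), and was at 18.5 ± 2.39 FPKM in TNF-α+WBT. Cdkn1b (p27) was at 21.9 ± 0.0387 FPKM in Con and 20.3 ± 1.04 FPKM in TNF-α (adjusted p = 0.257), and Ccna2, the S phase cyclin A, at 8.37 ± 0.465 and 10.2 ± 0.847 FPKM (adjusted p = 0.195).

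Targets of p53, many of which respond to replication stress, mostly had fold changes above 0 (10 of 12 in each comparison, with 2 below). At an adjusted p under 0.05, 5 rose and 1 fell between TNF-α and Con, and 7 rose and 1 fell between TNF-α+WBT and Con. These comparisons share the Con libraries. Such a p was held by 4.86% and 3.71% of all tested genes, and by 8.37% and 6.46% of those averaging 1 FPKM or more. Between TNF-α+WBT and TNF-α no target had one. There 6 were higher and 1 lower at an unadjusted p under 0.05, where 3.3% and 3.61% of genes averaging 1 FPKM or more were. The 1 lower target was Plk2, a kinase. It was at 20.1 ± 0.623 FPKM in Con, 40.8 ± 1.79 FPKM in TNF-α and 33.5 ± 0.88 FPKM in TNF-α+WBT (adjusted p = 5.66e-06 between TNF-α and Con). Gadd45a, which binds PCNA, named after its values were seen, was the 1 target that fell between TNF-α and Con at an adjusted p under 0.05. It went from 92.7 ± 1.34 to 59.0 ± 1.83 FPKM (adjusted p = 1.14e-05) and was at 66.6 ± 0.819 FPKM in TNF-α+WBT.

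Markers of cell types also moved between the groups. The summed level of the 12 Schwann cell genes was 926 to 983 FPKM in Con, 751 to 813 FPKM in TNF-α and 818 to 847 FPKM in TNF-α+WBT, with Ngfr at 169 ± 4.41, 97.0 ± 0.537 and 108 ± 1.64 FPKM and none of the list at 0. The 18 fibroblast genes summed to 5396 to 5754 FPKM in Con, 5694 to 5984 FPKM in TNF-α and 5674 to 5781 FPKM in TNF-α+WBT, with Lum at 0 throughout and Pdgfrb, the gene of the list with the smallest p between TNF-α and Con, at 70.0 ± 1.31, 48.8 ± 0.572 and 49.9 ± 1.69 FPKM. Of the 17 fibroblast genes tested, 11 were above 0 between TNF-α and Con, and 3 rose (Col1a1, Col1a2 and Acta2) and 2 fell (Pdgfrb and Postn) at an adjusted p under 0.05. Among the genes that every cell uses, 1 of 12 passed the test between TNF-α and Con, Actb, at 480 ± 15.8 and 535 ± 5.46 FPKM (adjusted p = 0.0337). The part of these shifts in the values of the replication genes was not tested.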

How the data were processed

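Poly(A) RNA of 9 cultures (3 Con, 3 TNF-α and 3 TNF-α+WBT) was sequenced as paired-end libraries. The authors deposited FPKM values per gene and per transcript. Their workflow drawing names HISAT2, StringTie and Ballgown, and versions, genome build and strand setting are not given in the sources used here. Of the genes, 98.1% matched GENCODE M21 (GRCm38), which gave symbols and positions.

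The 25417 genes with more than 0 FPKM in 3 or more libraries were compared with limma 3.58.1 in R 4.3.3 on log2(FPKM + 0.1), a scale that understates changes of low genes. A single linear model held all libraries and the 3 group means, and its variances were moderated along an intensity trend. P-values were Benjamini-Hochberg adjusted over all tested genes. Cdt1 was also put to an exact two-sided permutation test of its FPKM values. FPKM values carry no depth, and library totals were estimated from the spacing of low values in 10717 genes of a single transcript over 1000 bases. Fragments derived from them are approximate and stand for counting error only. Python 3.11.15 was used for the rest.

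The genes and lists were chosen with earlier results of these data known. Values in every library are given for genes with an adjusted p under 0.05, for the gene with the smallest p of each of 10 role groups in each main comparison, and for the highest and lowest level. Of other lists, the gene with the smallest p in each main comparison is named, with Cdkn1a, Cdkn1b, E2f1, Ccnd1 and Ccna2. Alternatives covered the pseudocount, the filter, the trend, the groups in the model, the scaling, summed transcripts, a block for the replicate number and the omission of each library.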

Additional observations from a re-analysis of the deposited data

How the results depend on the processing

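Across 19 alternative settings, the medians of the 47 genes moved by less than the spread between replicates and no called gene changed direction. With 1 library omitted at a time, the median log2 fold change ran from 0.11 to 0.15 between TNF-α and Con, from -0.17 to -0.10 with WBT added to TNF-α and from -0.06 to 0.01 between TNF-α+WBT and Con. Of the 47 genes, 2 in place of 1 were called between TNF-α and Con at an adjusted p under 0.05 when genes averaging under 1 FPKM were left out (Cdt1 and Mcm5), and 1 to 2 with a library omitted (Rpa1 joined without Con replicate 2, and Mcm5 without TNF-α replicate 2). In the other comparisons the count stayed at 0 and at 1.

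Same-numbered libraries did not deviate together (correlations of -0.05 to 0.10 over 12684 genes, against -0.12 to 0.12 for other pairs), so the replicate number is not a pairing. With it as a block, 2 genes were called between TNF-α and Con, the second being Mcm5 (0.32, adjusted p = 0.0146). Over all tested genes the block gave 893 calls between TNF-α and Con in place of 1236. At 35 to 154 estimated fragments a library, the log2 fold changes of Orc1, Gins1, Gins3, Gmnn, Mcm10 and Pole2 had standard errors of 0.14 to 0.22, against 0.06 for Cdt1, but Rpa1, with 1007 to 1861 fragments, also had one of 0.22.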
